A study of Mus musculus with 6 samples.

Results

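The 10 genes described here all act in placing, keeping or removing repressive marks on DNA or histones. Zfp57 and Zfp445 encode KRAB zinc finger proteins, Trim28 and Setdb1 the silencing complex they recruit, Dnmt1, Dnmt3a and Dnmt3b the DNA methyltransferases, and Tet1, Tet2 and Tet3 the enzymes that oxidise methylcytosine. They were chosen by symbol, and each of the 10 had exactly 1 row that names it alone, so all 10 members of the 30102 genes measured could be followed. The brightest row of a gene would have been kept where several named it, but no member needed that choice. The members were put together with earlier results of these arrays known, so their p-values are given over all 30102 genes and not over the group.

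The cells were bone marrow-derived mast cells (BMMCs) from C57BL/6J mice, a primary culture matured for 6 weeks with interleukin 3 and a supernatant that holds stem cell factor. The ionomycin group received the calcium ionophore ionomycin at 1 µg/mL in Tyrode's buffer for 1 h, was washed and was returned to culture medium for 3 h. Their RNA was thus collected 4 h from the start of activation. The naive group went through the same buffer, washes and medium without the ionophore. Each group had 3 whole-transcript arrays of total RNA, and the comparison asks which transcripts differ at that time. The labels do not say that replicates came from separate animals or cultures, so the p-values cover only how these arrays vary within a group, and that variation may be technical.

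KRAB zinc finger proteins bind particular DNA sequences and bring in TRIM28 (also called KAP1), which in turn brings the histone methyltransferase SETDB1 to write H3K9 methylation. ZFP57 and ZFP445 do this at the methylated alleles of imprinting control regions, where they keep DNA methylation through the early embryo; ZFP57 recognises a short methylated hexamer. DNMT1 copies methylation onto new DNA strands after replication, DNMT3A and DNMT3B add it to unmethylated sites, and the TET enzymes start its removal. In human mastocytosis TET2 and DNMT3A are recurrently mutated, and in mouse mast cells loss of Dnmt3a has been linked to stronger responses to stimulation.

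Signals are on the log2 scale, and 3 arrays a group limit what can be resolved. They ran from 3.01 to 14.6 over the table. A level of 6.03, the 95th percentile of 1768 chemosensory receptor genes, served as background. All 11 mast cell markers, among them Kit, Fcer1a and Cpa3, lay above it on average, with summed linear signals of 84387 to 85654 on ionomycin and 89073 to 90741 on naive arrays. Of the 11, 0 passed by limma and 4 had an unadjusted p under 0.05, which 15.6% of all genes had. Without both arrays of replicate 1, 3 of the 11 passed, the IgE receptor subunit Ms4a2 (-0.59, limma adjusted p = 0.0231) and the tryptase Tpsab1 (-0.58, adjusted p = 0.0156) as lower and the histamine enzyme Hdc (0.64, adjusted p = 0.0119) as higher, and Ms4a2 also passed with a block of 2 levels, replicate 1 against the other arrays (adjusted p = 0.0102). A further 29 measured markers covered basophils, macrophages, neutrophils, T cells, B cells, megakaryocytes and erythroid cells, and pluripotent and germ cells. Of these, 23 also lay above background, as did 18995 of all 30102 genes, so that level does not mark a cell type. By limma 0 of the 29 passed, and 5 had an unadjusted p under 0.05. Without both arrays of replicate 1 the macrophage markers Cd68 (-0.51, limma adjusted p = 0.0343) and Mertk (0.48, adjusted p = 0.0350) passed in opposite directions, and their part in the results from that fit was not tested. Of the 5 pluripotent and germ cell markers, 2 lay above background (Pou5f1 and Zfp42) and Nanog, Dppa3 and Ddx4 did not, with summed linear signals of 323 to 351 on ionomycin and 298 to 337 on naive arrays. The arrays of replicate 1 stood apart in both groups: on principal component 1, which held 52.6% of the variance, they lay at 21.2 (ionomycin) and 48.0 (naive), and the other 4 arrays lay between -21.9 and -13.0. The basophil markers Mcpt8 and Prss34 were also highest on replicate 1 in both groups, Cd200r3 only among naive arrays. Prss34 had 10.70, 8.85 and 8.60 on ionomycin and 10.35, 8.94 and 8.70 on naive arrays. Of the macrophage markers, Cd68 was lowest on replicate 1 in both groups and Adgre1 highest. Cd68 had 10.67, 11.47 and 11.37 on ionomycin and 10.49, 11.99 and 11.87 on naive arrays. Whether cell content differed between replicates was not tested. The labels do not state that the replicate numbers pair the samples, and the values do not tell numbers 2 and 3 apart. A fit that blocks on the number assumes that pairing and is given where it changes a call. Results are also given without both arrays of replicate 1.

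Of the 10 genes 1 rose with ionomycin, Zfp57, 0 fell and 9 did not pass (limma, adjusted p under 0.05), where 0.349% of all genes passed, 0.289% as higher and 0.0598% as lower. With the replicate number as a block, which called 0.505% of all genes, 3 of the 10 passed, Zfp57 and Dnmt3a as higher and Dnmt1 as lower. The same 3 passed with that block of 2 levels, a fit that called 4.72% of all genes (2.25% higher, 2.47% lower), and without both arrays of replicate 1, where 2.83% were called. Array weights called 12.9% of all genes (7.44% higher, 5.49% lower) and 2 of the members, Zfp57 and Dnmt3a. Ionomycin and naive arrays were fully separated for 4 members, Zfp57, Dnmt3a and Tet3 as higher and Setdb1 as lower, and for 26.2% of all genes.

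**Figure D1:**
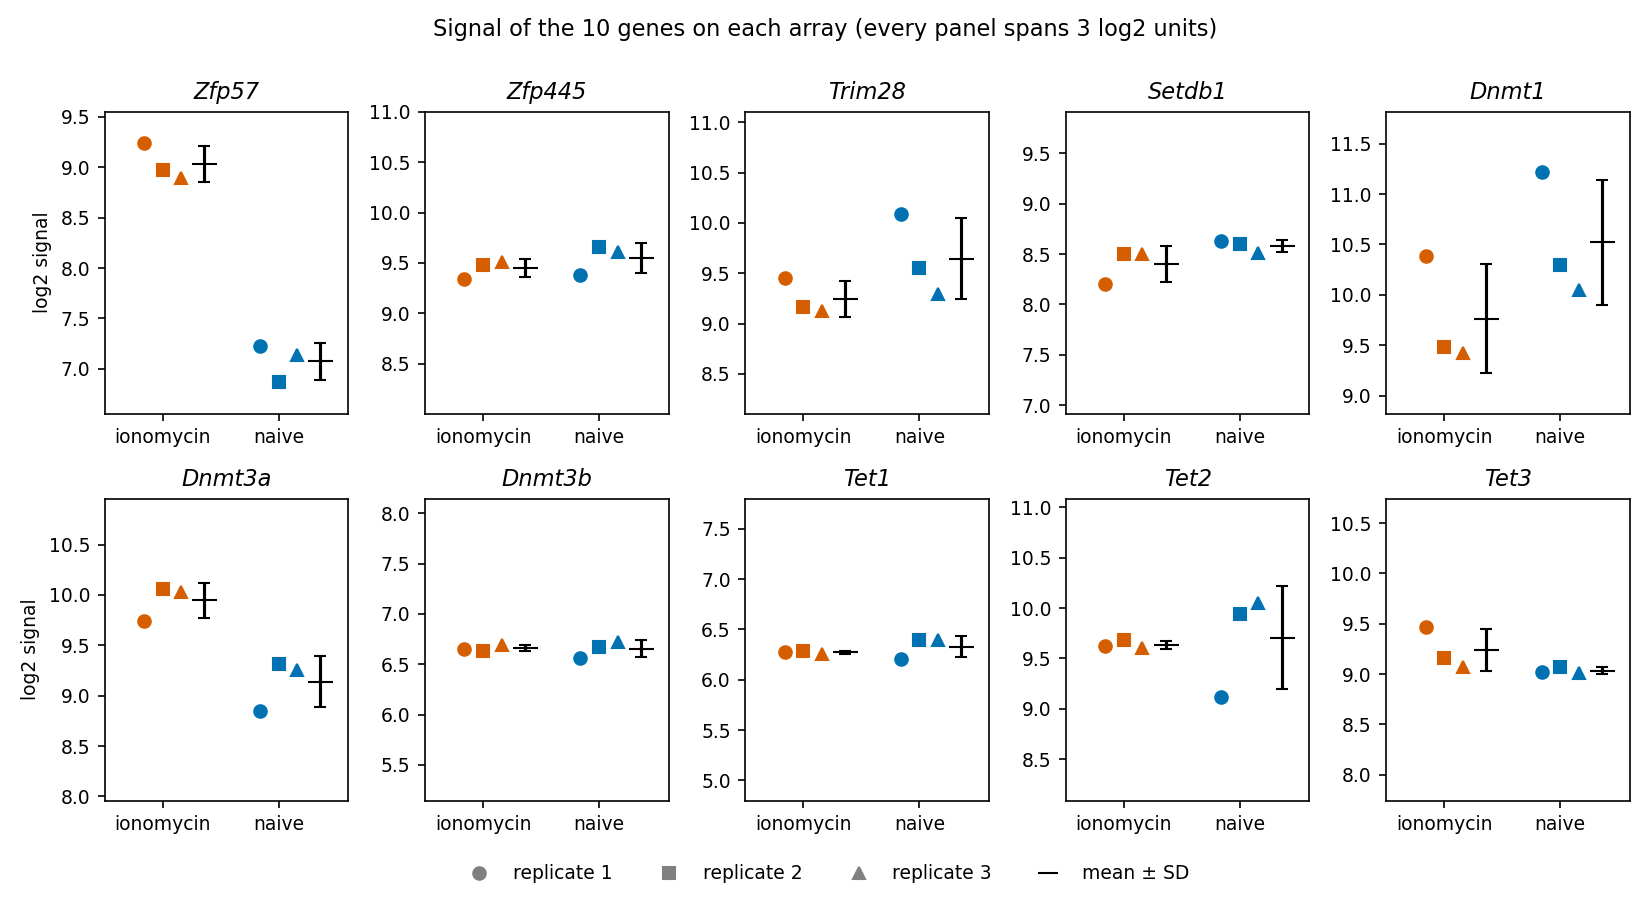
Log2 signal of the 10 genes on each array, ionomycin left and naive right in every panel, with points by replicate number and black bars for the mean ± SD (n = 3). The Zfp57 groups lie 1.67 apart, the Dnmt3a groups 0.43 apart, and replicate 1 (circles) is the highest array of both groups for Dnmt1 and Trim28.

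Zfp57, the imprint-keeping zinc finger gene, had log2 signals of 9.24, 8.98 and 8.90 on the ionomycin arrays of replicates 1, 2 and 3, against 7.23, 6.87 and 7.13 on the naive arrays. The lowest ionomycin array lay 1.67 above the highest naive array, while the arrays within a group spanned 0.34 with ionomycin and 0.35 without. The mean was 9.04 ± 0.18 with ionomycin and 7.08 ± 0.18 in naive cells (SD, n = 3 each), which made it 3.89 times as high after activation (limma difference 1.96 ± 0.13 SE on the log2 scale, adjusted p = 0.0114). The naive mean was itself above the background level of 6.03. By their mean over all arrays 18995 of 30102 genes were too, so this does not show that naive cells express Zfp57. At the 3 replicate numbers the difference was 2.01, 2.10 and 1.76. A difference at least as large was found for 0.0997% of all genes (30 of 30102, Zfp57 included), and 6 genes had a smaller p.

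The size of the Zfp57 difference moved little when arrays were left out, from 1.86 to 2.03 over the 6 fits without 1 array, but the call depended on them. It was lost without ionomycin replicate 2 (limma adjusted p = 0.111), ionomycin replicate 3 (0.0643) or naive replicate 3 (0.0847), fits in which the difference stayed at 1.99, 2.03 and 1.99. These fits called few genes of any kind, 1, 7 and 9 over the whole table, against 105 in the fit over all arrays. With the block limma's adjusted p was 0.0118, and without both arrays of replicate 1 the difference was 1.93 (adjusted p = 0.00212).

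The promoter table of RefSeq (GRCm38.p6) holds 3 starts for Zfp57, and the array row does not say which of them gave the transcripts. The 250 bases before each start are shown beside a window of Dnmt3a, because the 2 genes differ in CpG content. Dnmt3a was the other member called higher in the fit with the replicate block. Capitals mark every CpG, the dinucleotide that DNA methyltransferases act on, and sequences run 5′ to 3′ on the gene's strand. The windows are chr17:37000913-37001162, chr17:37002275-37002524 and chr17:37003416-37003665, for Zfp57 and chr12:3806730-3806979 for Dnmt3a, all on the plus strand. The windows of starts 2 and 3 of Zfp57 lie downstream of its first start, and the Dnmt3a window is that of the first of its 3 starts.
Zfp57, start 1: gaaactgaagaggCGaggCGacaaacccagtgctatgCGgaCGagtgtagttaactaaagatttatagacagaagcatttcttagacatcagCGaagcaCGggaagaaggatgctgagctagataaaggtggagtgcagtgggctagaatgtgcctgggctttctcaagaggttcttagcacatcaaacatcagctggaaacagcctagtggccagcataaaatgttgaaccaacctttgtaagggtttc
Zfp57, start 2: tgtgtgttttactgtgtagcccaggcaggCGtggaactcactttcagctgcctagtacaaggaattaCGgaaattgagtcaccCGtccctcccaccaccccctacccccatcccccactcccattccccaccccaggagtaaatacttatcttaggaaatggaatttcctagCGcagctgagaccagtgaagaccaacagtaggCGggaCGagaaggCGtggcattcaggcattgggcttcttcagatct
Zfp57, start 3: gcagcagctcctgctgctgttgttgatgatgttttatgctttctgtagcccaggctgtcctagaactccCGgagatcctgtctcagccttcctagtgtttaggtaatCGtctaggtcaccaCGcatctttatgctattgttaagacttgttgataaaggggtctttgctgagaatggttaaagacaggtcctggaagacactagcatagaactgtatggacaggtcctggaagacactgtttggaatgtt
Dnmt3a: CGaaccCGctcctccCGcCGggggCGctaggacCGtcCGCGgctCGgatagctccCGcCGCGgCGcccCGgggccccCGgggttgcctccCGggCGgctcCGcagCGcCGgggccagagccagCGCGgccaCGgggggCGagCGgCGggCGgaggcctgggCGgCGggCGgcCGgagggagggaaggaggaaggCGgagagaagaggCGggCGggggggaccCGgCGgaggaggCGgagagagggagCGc

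The Zfp57 windows held 6, 7 and 3 CpGs in 250 bases, close to the median of 6 over 32851 promoter windows (quartiles 2 and 16). The Dnmt3a window shown held 38, and its other windows 40 and 15. Those of Dnmt1 held 26, 7 and 2, and the remaining members had 5 (Zfp445), 13 (Setdb1), 15 (Tet1), 17 (Trim28 and Tet3), 21 (Dnmt3b) and 51 (Tet2). The hexamer TGCCGC that ZFP57 binds, searched on both strands, occurred in none of the 3 Zfp57 windows, in 3 of the 16 windows of the members (1 each of Trim28, Dnmt3a and Tet3) and in 8.68% of all windows. The AP-1 motif TGANTCA was in the second Zfp57 window, 176 bases before the start, in no other member window, and in 6.75% of all windows. The NFAT core GGAAAA, searched on both strands, was in 0 of the Zfp57 windows, in 3 of the 16 (1 each of Setdb1, Dnmt1 and Tet1) and in 20.4% of all windows. Such matches describe letters in these windows and do not show binding.

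Among the 333 other measured genes whose symbol is Zfp and a number, 1 rose, 0 fell and 332 did not pass (limma, over all genes). The 1 that rose was Zfp36, with 8.74, 8.69 and 8.51 on ionomycin arrays against 7.57, 7.72 and 7.91 on naive arrays (log2 difference 0.92, limma adjusted p = 0.0417). Its product has CCCH fingers, binds RNA and is no KRAB protein, so the symbol alone does not make a KRAB family. It did not pass with the block, which called Zfp677 alone, as lower (log2 difference -0.59, limma adjusted p = 0.0387 with the block). The differences of the 333 genes ran from -0.73 (Zfp934) to 0.92, with the second highest at 0.66 (Zfp703), so Zfp57 at 1.96 lay above all of them. Their median was -0.10, with quartiles of -0.28 and 0.05, against 0.05 over all genes. Of the 333, 64.3% were below 0, against 35.4% of all genes, and without adjustment 12 were higher (3.6%, against 10.2% of all genes) and 82 lower (24.6%, against 5.44%), at p under 0.05. Arrays were fully separated for 27 as higher (8.11%, against 18.9% of all genes) and 98 as lower (29.4%, against 7.31%). With the block of 2 levels 3 of the 333 passed as higher and 44 as lower, where 2.25% and 2.47% of all genes did. Without both arrays of replicate 1, 2 passed as higher and 15 as lower, where 1.41% and 1.43% of all genes did. The split of calls of the fit over all arrays thus did not hold in these 2 fits. After each array was centred on its median the family's median was -0.16, against -0.01 over all genes.

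**Figure D2:**
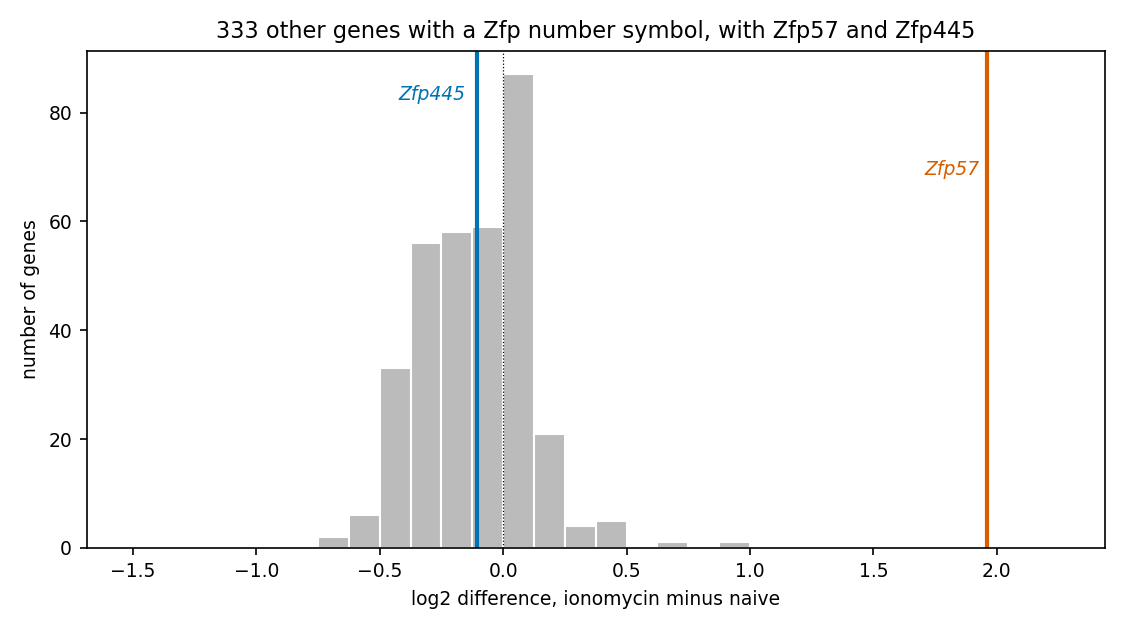
Histogram of the log2 difference (ionomycin minus naive) over 333 genes with a Zfp number symbol, with lines for Zfp57 and Zfp445, which are not among the 333. Zfp57 at 1.96 lies to the right of the whole distribution, and Zfp445 at -0.10 lies at its median.

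Zfp445, the second imprint-keeping KRAB gene, had 9.34, 9.48 and 9.51 on ionomycin arrays, against 9.38, 9.66 and 9.61 on naive arrays. The groups overlapped, and the difference of -0.10 ± 0.09 SE missed the threshold (limma adjusted p = 0.581, and 0.300 when blocked), with a 95% interval of -0.33 to 0.12.

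None of the genes next to Zfp57 passed the test. Among its 5 measured neighbours on each side in gene order, 0 of 10 passed by limma. As 0.349% of all genes passed, a count of 0 says little for so short a list. Without adjustment 1 was higher and 0 were lower at p under 0.05 (10% and 0%, against 10.2% and 5.44% of all genes). Their median was 0.09 as deposited and -0.00081 after quantile normalization. Named from them by mean signal were Znrd1 (log2 difference -0.23, limma adjusted p = 0.331), which encodes a subunit of RNA polymerase I, Znrd1as (-0.19, adjusted p = 0.331), its antisense transcript, and Gabbr1 (0.14, adjusted p = 0.647), a subunit of the GABA-B receptor. Of the 10 neighbours 4 lay above background.

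The 5 genes whose signal followed Zfp57 most closely over the 6 arrays, out of 14269 named genes above background, were Cpn1 (Pearson's r 0.996), Ahr (0.995), Gss (0.995), Acvr1 (0.993) and Dnaja4 (0.993). These correlations share the 2 groups of arrays and therefore mostly restate a difference between them. Ahr, the aryl hydrocarbon receptor, was at 10.40, 10.37 and 10.35 with ionomycin and 9.73, 9.65 and 9.65 in naive cells (log2 difference 0.69, limma adjusted p = 0.0153). Dnaja4, an HSP40 cochaperone, rose by 1.15 (limma adjusted p = 0.00549), and Cpn1, a carboxypeptidase that cleaves anaphylatoxins, by 0.73 (adjusted p = 0.0153). Gss, glutathione synthetase (0.26, limma adjusted p = 0.120), and Acvr1, an activin receptor (0.34, adjusted p = 0.0832), did not pass.

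Trim28, the scaffold that KRAB zinc finger proteins recruit, had 9.45, 9.17 and 9.13 on ionomycin arrays, against 10.09, 9.56 and 9.29 on naive arrays. The ionomycin array of replicate 1 lay above naive replicate 3, so the groups overlapped, although every number showed the lower value with ionomycin (-0.64, -0.39 and -0.17). The mean was 9.25 ± 0.18 with ionomycin and 9.64 ± 0.40 in naive cells (SD, n = 3). The difference of -0.40 ± 0.21 SE missed the threshold (limma adjusted p = 0.377, and 0.133 when blocked), with a 95% interval of -0.90 to 0.11.

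Setdb1, the H3K9 methyltransferase of the complex, had 8.20, 8.50 and 8.50 with ionomycin, against 8.63, 8.60 and 8.51 in naive cells. The groups did not overlap, but only by 0.0095, and the low array was ionomycin replicate 1. The difference of -0.18 ± 0.10 SE did not pass (limma adjusted p = 0.393), and without both arrays of replicate 1 it was -0.05 (adjusted p = 0.649).

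Partners of TRIM28 and other proteins of H3K9 methylation gave no call over all genes. Of 20 measured genes of a list of 25, 0 passed by limma with or without the block. Unadjusted, 0 were higher and 6 lower (p under 0.05, which 10.2% and 5.44% of all genes were). Ionomycin and naive arrays were fully separated for 8 as lower (7.31% of all genes) and for 1 as higher (18.9%). The median was -0.22, against 0.05 over all genes. Atf7ip, a cofactor that stabilises SETDB1, had 10.06, 10.14 and 10.19 with ionomycin, against 10.46, 10.46 and 10.54 in naive cells, a difference of -0.36 ± 0.06 SE (limma adjusted p = 0.0945, 0.0783 with the block). Atf7ip passed with the block of 2 levels (limma adjusted p = 0.0272) and after median centring. Trim33, a relative of TRIM28, was at -0.40 (limma adjusted p = 0.0979) and Senp7, a SUMO protease, at -0.56 (adjusted p = 0.112), and both passed as lower with the block of 2 levels (0.0363 and 0.0302). Ehmt2, the methyltransferase G9a, was at -0.18 (limma adjusted p = 0.275) and Chd3, of the NuRD complex that TRIM28 binds, at -0.10 (adjusted p = 0.497).

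Dnmt1, the maintenance methyltransferase, had 10.38, 9.48 and 9.42 on ionomycin arrays, against 11.22, 10.29 and 10.05 on naive arrays. In both groups replicate 1 was clearly the highest array, and ionomycin replicate 1 lay above naive replicates 2 and 3. Within each number the ionomycin array was lower, with differences of -0.83, -0.81 and -0.63. The mean was 9.76 ± 0.54 with ionomycin and 10.52 ± 0.62 in naive cells (SD, n = 3), and the difference of -0.76 ± 0.38 SE missed the threshold (limma adjusted p = 0.362). With the replicate number as a block the SE was 0.07 and Dnmt1 passed as lower (limma adjusted p = 0.0387), in a fit that called 0.11% of all genes as lower. It also passed without both arrays of replicate 1, at -0.72 (adjusted p = 0.0264), where 1.43% of all genes were called lower.

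Genes of S phase and mitosis were, like Dnmt1, highest on the replicate 1 arrays. Their mean log2 signal over 26 measured genes of a list of 28 was 9.30, 7.71 and 7.66 on ionomycin arrays of replicates 1, 2 and 3, against 9.83, 8.001 and 7.77 on naive arrays, differences of -0.53, -0.29 and -0.12. In this list 0 of 26 passed by limma without the block. Unadjusted p-values under 0.05 were 0 in either direction, against 10.2% higher and 5.44% lower over all genes. With the block 2 passed, Mki67, a marker of cycling cells (-0.90, limma adjusted p = 0.0372), and Top2a, a topoisomerase of dividing cells (-0.77, adjusted p = 0.0330), both lower. Pcna, the replication clamp to which DNMT1 binds, was at 0.32 (limma adjusted p = 0.709) and Mcm3, a replicative helicase subunit, at -0.68 (adjusted p = 0.573), which passed as lower with the block of 2 levels. Uhrf1, which guides DNMT1 to newly copied DNA, had 9.24, 7.91 and 7.997 with ionomycin, against 9.90, 8.16 and 7.88 in naive cells (limma adjusted p = 0.835, 0.330 with the block). In such bulk RNA, fewer cycling cells and less RNA per cell cannot be told apart, and the part of the S phase and mitosis genes in the Dnmt1 difference was not tested.

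**Figure D3:**
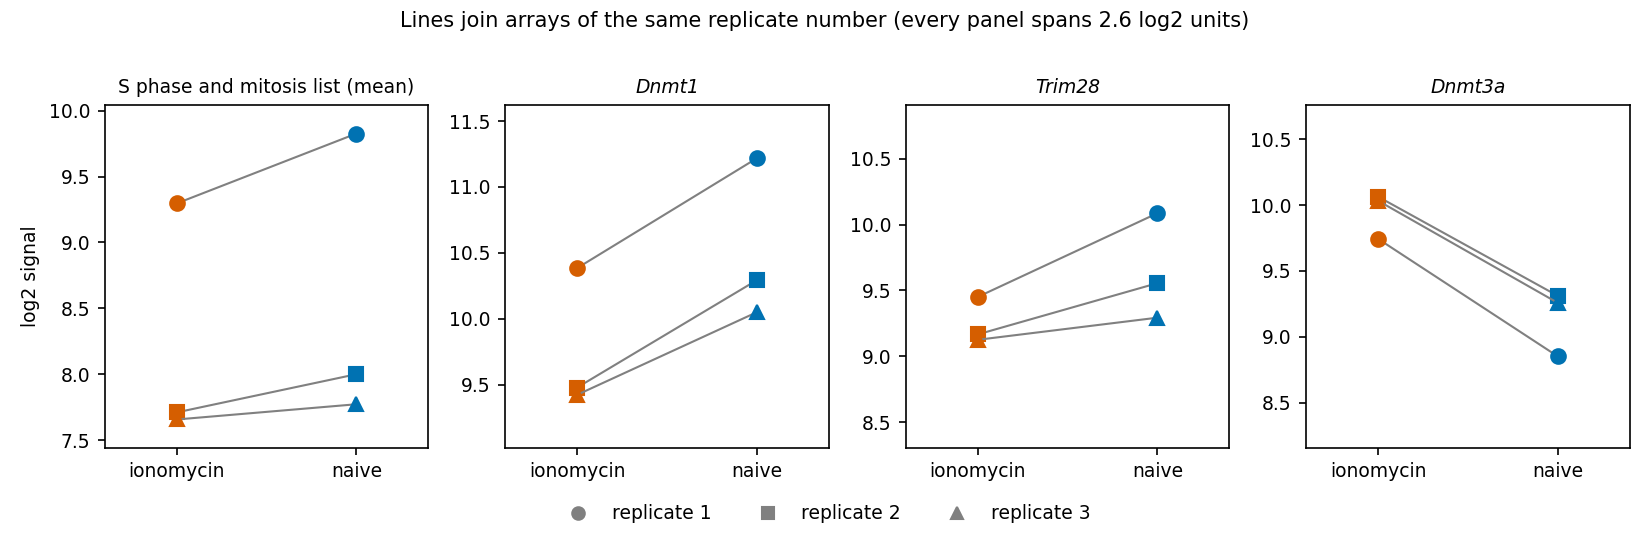
Log2 signal by array for the mean of the S phase and mitosis list, Dnmt1, Trim28 and Dnmt3a, with lines joining the ionomycin and naive arrays of one replicate number. Replicate 1 is high in the first 3 panels and low for Dnmt3a, while all 3 lines run the same way within each panel.

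Dnmt3a, a de novo methyltransferase, had 9.74, 10.06 and 10.03 on ionomycin arrays, against 8.85, 9.31 and 9.26 on naive arrays. The groups were 0.43 apart, and here replicate 1 was the lowest array of both groups. The mean was 9.95 ± 0.18 with ionomycin and 9.14 ± 0.25 in naive cells (SD, n = 3), a ratio of 1.75. The difference of 0.81 ± 0.15 SE did not pass over all genes (limma adjusted p = 0.109), although its 95% interval of 0.44 to 1.17 lay above 0. With the block Dnmt3a passed as higher (SE 0.06, limma adjusted p = 0.0330), in a fit that called 0.395% of all genes as higher. Without both arrays of replicate 1 the difference was 0.76 (adjusted p = 0.00775), where 1.41% of all genes were called higher. The differences at the 3 numbers were 0.89, 0.75 and 0.78.

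Dnmt3b, the other de novo methyltransferase, had 6.65, 6.63 and 6.69 with ionomycin, against 6.57, 6.68 and 6.73 in naive cells. The groups overlapped within a narrow span, and the difference of 0.0042 ± 0.06 SE did not pass (limma adjusted p = 0.976), with a 95% interval of -0.15 to 0.16, and its sign turned after centring or quantile normalization. Whether Dnmt3a and Dnmt3b differ in their response was not tested. Of 18 measured cofactors of DNA methylation and imprint keepers, 0 passed by limma with or without the block. The median was -0.06, against 0.05 over all genes. Arrays were fully separated for 0 as higher and 2 as lower (0% and 11.1%, against 18.9% and 7.31% of all genes). Unadjusted p-values under 0.05 numbered 0 higher and 1 lower (0% and 5.56%, against 10.2% and 5.44% of all genes). The lower one was Ctcf, the insulator protein (-0.34 ± 0.09 SE, limma adjusted p = 0.193, 0.0934 with the block), which passed with the block of 2 levels (limma adjusted p = 0.0324) and with array weights. Usp7, a deubiquitinase that stabilises DNMT1, was at -0.18 (limma adjusted p = 0.471) and Ahcy, which clears S-adenosylhomocysteine, at -0.08 (adjusted p = 0.931).

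**Figure D4:**
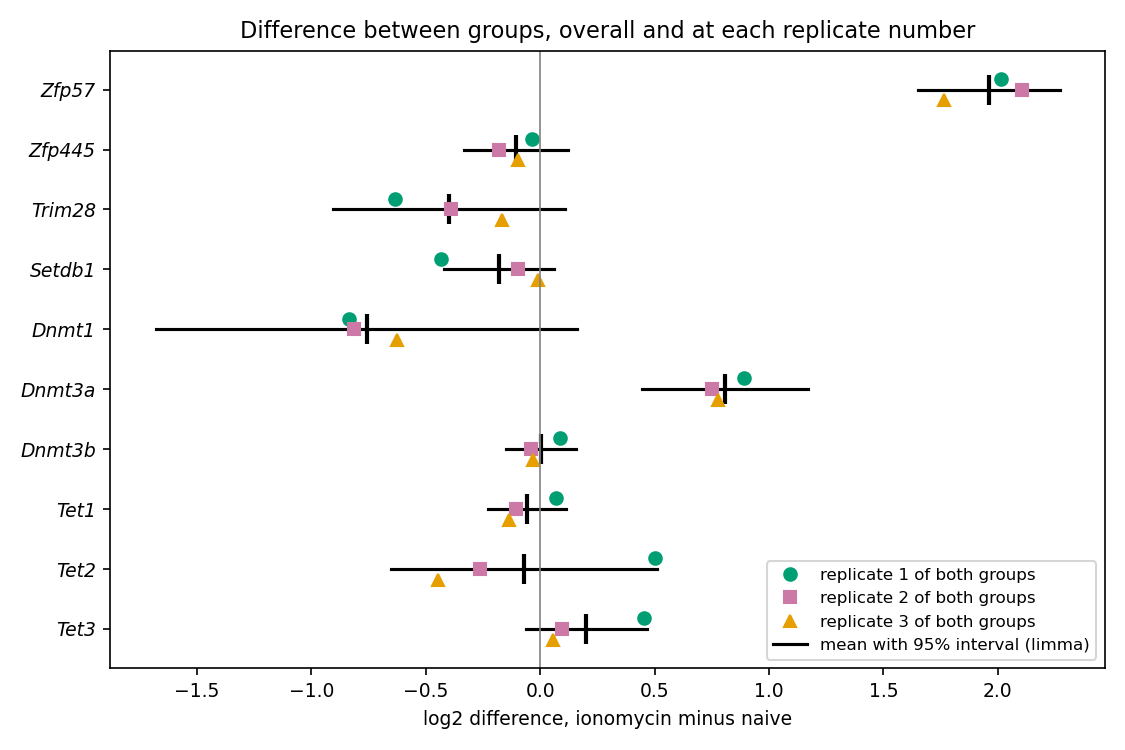
Log2 difference (ionomycin minus naive) of the 10 genes, with a black tick and line for the mean and its 95% interval from limma, and points for each replicate number. All 3 numbers lie close together for Zfp57, Dnmt1 and Dnmt3a, while Tet2 has replicate 1 at 0.50 and the others below 0.

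Tet2 had 9.62, 9.68 and 9.61 on ionomycin arrays, against 9.12, 9.94 and 10.05 on naive arrays. The 3 ionomycin arrays lay within 0.07 of each other, inside a naive range of 0.93, and the numbers disagreed in direction, with differences of 0.50, -0.26 and -0.45. The mean difference of -0.07 ± 0.24 SE missed the threshold (limma adjusted p = 0.892, and 0.834 when blocked). Without both arrays of replicate 1 it was -0.36 (adjusted p = 0.0713).

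Tet3 had 9.47, 9.16 and 9.07 with ionomycin, against 9.02, 9.07 and 9.01 in naive cells. The groups were separated by 0.0020, and ionomycin replicate 1 alone stood clearly above the naive arrays. The difference of 0.20 ± 0.11 SE missed the threshold (limma adjusted p = 0.387, and 0.262 when blocked) and was 0.08 without both arrays of replicate 1. Tet1, the TET gene best known from embryonic stem cells, had 6.28, 6.29 and 6.25 with ionomycin, against 6.21, 6.39 and 6.39 in naive cells. Both groups lay close to background, and the difference of -0.06 ± 0.07 SE did not pass (limma adjusted p = 0.688).

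Of the partners of TET enzymes and base excision repair genes, which finish demethylation, 19 of 22 listed were measured. By limma 0 of the 19 passed with or without the block. Unadjusted p-values under 0.05 numbered 4 higher and 0 lower (21.1% and 0%, against 10.2% and 5.44% of all genes). Arrays were fully separated for 6 as higher and 0 as lower (31.6% and 0%, against 18.9% and 7.31% of all genes). The median was 0.0023 as deposited, against 0.05 over all genes. It was -0.064 after centring and -0.049 after quantile normalization, against -0.01 and 0.00 over all genes. The largest difference in the list was that of Gadd45b, a stress-induced gene that has been tied to active demethylation, with 11.59, 11.01 and 10.89 on ionomycin arrays against 8.61, 9.17 and 9.47 on naive arrays. The groups were well apart, and the difference of 2.08 ± 0.27 SE missed the threshold (limma adjusted p = 0.0520, 0.0812 with the block). It passed with the block of 2 levels (limma adjusted p = 0.0208) and without both arrays of replicate 1 (1.63, adjusted p = 0.00520). Cxxc5 also passed as higher with the block of 2 levels. The repair genes Lig3 and Polb passed as lower without both arrays of replicate 1. Ogt, the glycosyltransferase that binds TET proteins, was at -0.09 (limma adjusted p = 0.783) and Cxxc1, which binds unmethylated CpG, at -0.08 (adjusted p = 0.553). Among 11 measured readers of methylated CpG and their corepressors, 0 passed by limma with or without the block, and the median was -0.11. Unadjusted p-values under 0.05 numbered 0 higher and 1 lower (0% and 9.09%, against 10.2% and 5.44% of all genes). Arrays were fully separated for 1 as higher and 2 as lower (9.09% and 18.2%, against 18.9% and 7.31% of all genes). Named from this list by mean signal were Hdac1 (-0.02, limma adjusted p = 0.971), Gatad2a (0.07, adjusted p = 0.694) and Gatad2b (-0.03, adjusted p = 0.777), all subunits of the NuRD complex. Whether the row named Hdac1 reads the Hdac1 gene itself or a copy elsewhere in the genome was not tested.

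Imprinted genes, whose control regions ZFP57 and ZFP445 keep methylated in the embryo, were measured as total RNA, which does not separate the parental alleles. Of 47 measured genes of a list of 54, 0 passed by limma, unadjusted p-values under 0.05 numbered 10 higher and 4 lower (21.3% and 8.51%, against 10.2% and 5.44% of all genes), and the median was 0.09, against 0.05 over all genes. Arrays of the groups were fully separated for 13 as higher and 3 as lower (27.7% and 6.38%, against 18.9% and 7.31% of all genes). With the block 1 passed, Grb10, an adaptor of growth factor receptors, as higher (8.68, 8.90 and 8.90 with ionomycin, against 7.78, 8.22 and 8.17 in naive cells; log2 difference 0.77 ± 0.14 SE, limma adjusted p = 0.0964 without and 0.0394 with the block). Peg10, a gene derived from a retrotransposon, had 9.42, 9.30 and 9.10 with ionomycin, against 7.26, 8.14 and 8.18 in naive cells, a difference of 1.41 ± 0.26 SE (limma adjusted p = 0.103, 0.0971 with the block). Mest was at 0.54 (limma adjusted p = 0.0522, 0.0653 with the block), with a mean over all arrays below background. Both passed as higher with the block of 2 levels (limma adjusted p = 0.0325 for Peg10 and 0.0151 for Mest) and without both arrays of replicate 1 (0.00775 and 0.0274), and Peg10 also without naive replicate 1. With the block of 2 levels 4 of the 47 passed as higher and 2 as lower, where 2.25% and 2.47% of all genes did. Without both arrays of replicate 1 these were 3 and 1, where 1.41% and 1.43% of all genes passed. Named from the list by mean signal were Cd81, a tetraspanin (-0.13, limma adjusted p = 0.403), H13, a signal peptide peptidase (-0.07, adjusted p = 0.748), and Impact, a regulator of translation (-0.34, adjusted p = 0.309).

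**Figure D5:**
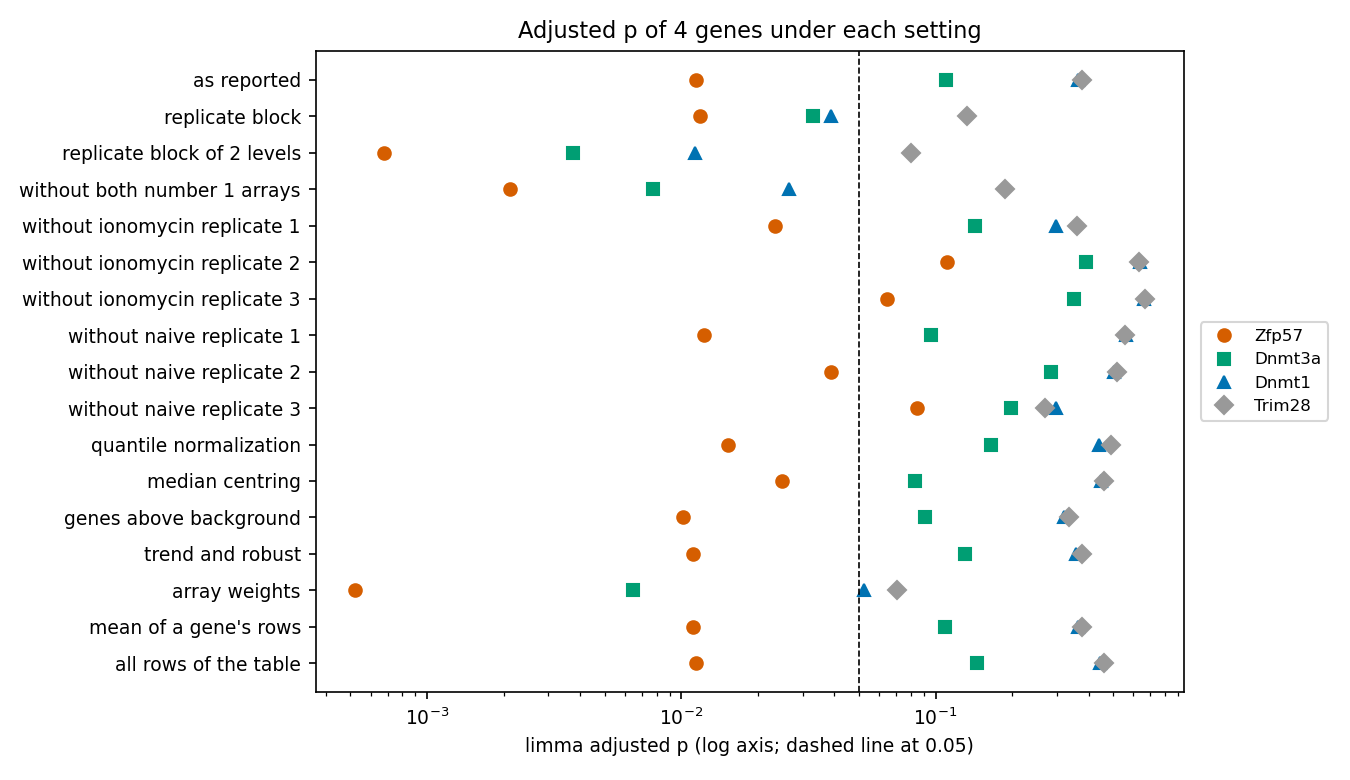
Limma adjusted p of Zfp57, Dnmt3a, Dnmt1 and Trim28 as reported and under each of 16 other settings, on a log axis with a dashed line at 0.05. Zfp57 is left of the line except in 3 fits without 1 array, and Dnmt1 and Dnmt3a cross it in the fits with a block or without both arrays of replicate 1, Dnmt3a also with array weights.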

How the data were processed

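The authors deposited log2 signals for 65770 rows on 6 arrays, with 0 values missing, and used the R package oligo per the submitters' processing notes. Which version, summarization, normalization and genome build they used is not given in the sources used here, and the log2 scale itself was inferred from the range of the signals. Column medians were 5.96, 6.03 and 6.03 for ionomycin and 5.88, 5.95 and 5.99 for naive replicates 1 to 3, and how arrays were centred stays unknown. The median log2 difference of all genes was 0.05 as deposited, -0.01 after centring and 0.00 after quantile normalization.

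Rows were named through the platform annotation (30439 with 1 symbol, 2146 with several, 33185 with none), with 827 symbols updated through Entrez IDs, and the brightest row of each of 252 genes with several was kept. Of the table, 30102 genes entered limma 3.58.1 (R 4.3.3; lmFit and eBayes, all 6 arrays, two-sided, Benjamini-Hochberg over all genes, threshold 0.05); the fit was tested on simulated data. Differences are ionomycin minus naive. Deviations from the group means correlated at 0.711, 0.476 and 0.469 between arrays of the same number. Crossed numbers 2 and 3 correlated as highly (0.481 and 0.524). The check therefore sets replicate 1 apart in both groups but does not tell numbers 2 and 3 apart, and the labels state no pairing. The full block on the number assumes that pairing.

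The members and lists were chosen with earlier results of these data known. Named genes are the members, up to 4 genes past the threshold from each list and then the brightest until 3 are named, up to 3 of the Zfp family, and the 5 genes most like Zfp57. Grb10, Peg10, Mest, Trim33, Senp7, Uhrf1, Top2a, Zfp677, Zfp703, Zfp934, Ms4a2, Hdc, Tpsab1, Mcpt8, Prss34, Cd200r3, Mertk, Cd68, Adgre1, Cxxc5, Lig3 and Polb were chosen after their values were seen. Promoter windows came from RefSeq (GRCm38.p6). Alternatives were the replicate block (full, or replicate 1 against the others), leaving out arrays, 2 other scalings, a filter on dim genes, other variance models, the mean of a gene's rows and all rows as the tested set.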

Additional observations from a re-analysis of the deposited data

How the results depend on the processing

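Zfp57 kept its direction under all 16 other settings (log2 difference 1.86 to 2.04, limma adjusted p from 0.000521 to 0.111) and missed the threshold in 3 of them, the fits without ionomycin replicate 2 or 3 or naive replicate 3; over the 6 fits without 1 array it ran from 1.86 to 2.03. With the replicate block Dnmt1 (-0.76) and Dnmt3a (0.81) passed, as they did with a block of 2 levels (limma adjusted p = 0.0114 and 0.00374) and without both arrays of replicate 1 (-0.72 and 0.76), and Dnmt3a also with array weights (0.76). This put the members' count at 3, 3 and 3 in those fits and 2 with array weights, against 1 as reported and 0 to 1 without 1 array. Zfp445, Trim28, Setdb1, Tet1 and Tet3 kept their direction and stayed short of the threshold under all 16. Dnmt3b, at 0.0042, turned to -0.093 after quantile normalization, -0.062 after centring, -0.029 with array weights and -0.037 without both arrays of replicate 1, and ran from -0.041 to 0.039 without 1 array; Tet2 ran from -0.36 to 0.10 without 1 array. The cause was not tested.

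Over all genes 105 were called, against 152 with the replicate block, 1421 with the block of 2 levels, 852 without both arrays of replicate 1, 3894 with array weights and 1 to 150 without 1 array (35, 1 and 7 without ionomycin replicate 1, 2 and 3, and 150, 13 and 9 without naive replicate 1, 2 and 3). After centring 68.3% of calls were higher, against 82.9% as reported. The replicate block called 0.395% of all genes as higher and 0.11% as lower, and the block of 2 levels 2.25% and 2.47%. Without both arrays of replicate 1 these shares were 1.41% and 1.43%, and with array weights 7.44% and 5.49%. With the replicate block the lists' calls were 1 imprinted gene and 2 genes of S phase and mitosis, and the block changed no other list's count apart from the Zfp family, where its 1 call was another gene. With the block of 2 levels they were 3 TRIM28 partners (Atf7ip, Trim33 and Senp7, lower), 1 cofactor (Ctcf, lower) and 2 TET partners (higher). Also called there were 6 imprinted genes (4 higher, 2 lower), 5 of S phase (lower) and 47 of the Zfp family (3 higher, 44 lower). Without both arrays of replicate 1 they were 3 TET partners (1 higher, 2 lower) and 4 imprinted genes (3 higher, 1 lower). That fit also called 2 of S phase (1 higher, 1 lower) and 17 of the Zfp family (2 higher, 15 lower). With array weights they were 6 TRIM28 partners (lower), 1 cofactor (Ctcf, lower), 1 methyl-CpG reader (lower) and 3 TET partners (1 higher, 2 lower). The weights also called 11 imprinted genes (6 higher, 5 lower), 74 of the Zfp family (10 higher, 64 lower) and 1 neighbour of Zfp57 (higher). Centring gave 1 TRIM28 partner (Atf7ip), the filter on dim genes 1 TET partner, the trend and robust setting 1 TET partner and 1 imprinted gene, and quantile normalization 2 of the Zfp family (1 higher, 1 lower). Without 1 array the imprinted list had 0 to 1 (Peg10, without naive replicate 1) and the Zfp family 0 to 2 calls. With 3 arrays a group, the differences of the dim members Tet1 (-0.06 ± 0.07 SE) and Dnmt3b (0.0042 ± 0.06 SE) were smaller than their SE. The SE of the fit over all arrays was largest for the brighter members Dnmt1 (0.38), Tet2 (0.24) and Trim28 (0.21).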
